A study of Drosophila melanogaster with 3 samples.

Results

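Chromatin occupancy of GFP-tagged unpg was examined at 10 cell cycle regulators of Drosophila melanogaster: the phosphatase gene stg, the kinase gene Cdk1, the cyclin genes CycA, CycB, CycD and CycE, the kinase inhibitor gene dap, the transcription factor gene E2f1, PCNA and fzr. They were chosen by name, with earlier results of these data known, and are 10 of 13945 protein-coding genes annotated on the 6 chromosome arms used. A peak summit was given to a gene when it lay inside the gene, or when the gene's transcription start site (TSS) was the nearest one, at no more than 20 kb. By this rule the 10 genes held 9 of the 7176 summits in the authors' list of peaks reproducible between replicates (the irreproducible discovery rate, IDR, list) and 61 of the 30000 summits in their pooled list. A summit within 500 bp of a TSS of its own gene is called a promoter summit below, and all other summits are called distal or outside promoters.

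The peaks come from ChIP-seq on whole embryos aged 4 to 16 h, in 3 biological replicates numbered 3, 4 and 5 that form 1 group, so no condition was compared with another. Each replicate came from 1 transgenic line that carries unpg, a homeodomain transcription factor gene, with GFP at its C-terminal end. The sample descriptions name an anti-GFP antibody and the antibody field names unpg; the promoter driving the tagged gene is not given in the sources used here. Untagged embryos were not analysed here, and dependence of a peak on the tagged protein was not tested. In whole embryos, binding in few cells and weak binding in many cannot be told apart. The list of each replicate holds 30000 peaks without read counts, so depth is unknown, and peaks are described by their rank within a list (rank 1 is the strongest by the authors' signal value).

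Cell division is driven by cyclin-dependent kinases, which act only when bound to a cyclin. CycD and CycE act before and at the onset of S phase, CycA and CycB with Cdk1 at mitosis; stg removes the inhibitory phosphates from Cdk1, dap blocks CycE kinase, E2f1 switches on S-phase genes such as PCNA, and fzr directs the destruction of mitotic cyclins. In the fly embryo these genes set when cells stop the patterned postblastoderm mitoses, exit the cycle or enter endocycles.

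CycB, CycE, E2f1, fzr and stg each had at least 1 IDR summit, while Cdk1, CycA, CycD, dap and PCNA had none. E2f1 had 5 of the 9 summits and the other 4 occupied genes had 1 each. An IDR summit was assigned to 5 of the 10 genes, against 29.1% of all protein-coding genes, and a promoter IDR summit to 4 of the 10 (CycE, E2f1, fzr and stg), against 17.8%. Distal IDR summits were found at CycB and E2f1, 2 of 10 genes against 17.2% of all genes. Only E2f1 had 5 or more IDR summits, which 2.36% of all genes had. It had 4 without replicate 3 or without replicate 4, and 3 among IDR peaks above the median signal value. It had 1 when 50% reciprocal overlap with a peak among the 7176 strongest of each replicate was asked for. These are counts over 10 named genes with no test behind them.

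The replicates held the same 4 members and differed at stg, dap and CycA. Among the 7176 strongest peaks of each replicate, 4 members had a summit in replicate 3 (30.4% of all genes), 6 in replicate 4 (29.6%) and 6 in replicate 5 (30.1%), or 5.33 ± 1.15 members (SD, n = 3). CycB, CycE, E2f1 and fzr were among them in every replicate. The gene stg was among them in replicates 4 and 5, dap in replicate 4 and CycA in replicate 5. The members' summits in these top lists numbered 10, 11 and 13 in replicates 3, 4 and 5 (11.3 ± 1.53), of which 3, 4 and 5 were in promoters. In the whole lists of replicates 3, 4 and 5 they numbered 57, 56 and 61 (58 ± 2.65) and belonged to 7, 9 and 9 members. The whole lists reached 53.3%, 53.5% and 54.1% of all genes. In the pooled list 8 members had a summit (47.4% of all genes) and 7 had a promoter summit (35.8%).

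**Figure D1:**
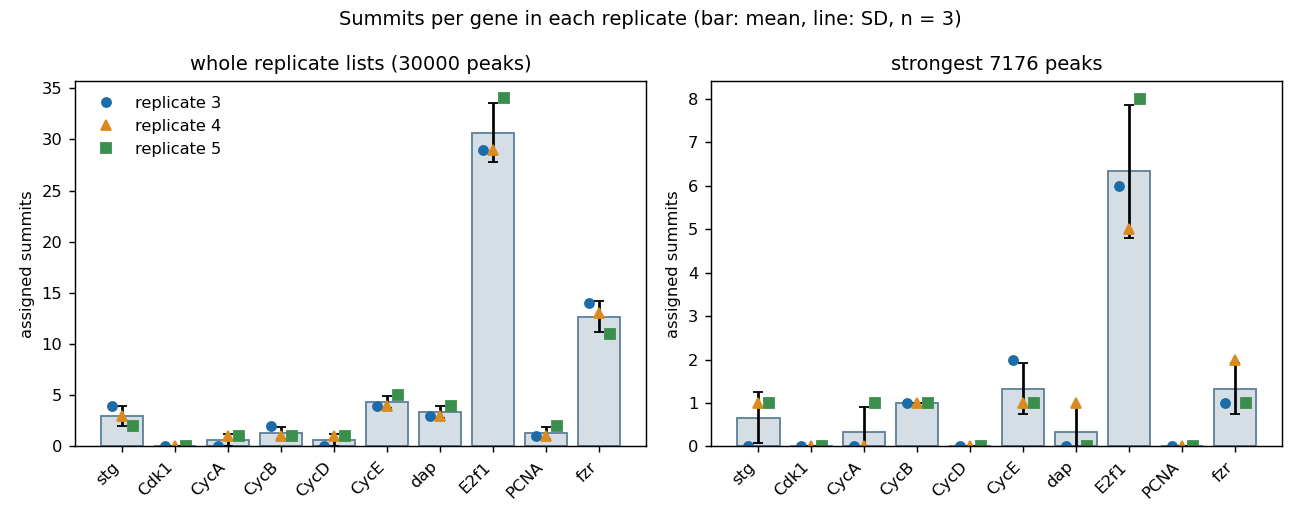
Number of summits assigned to each cell cycle gene in replicates 3, 4 and 5 (points), with the mean (bar) and SD (line, n = 3), over the whole lists (left) and the 7176 strongest peaks of each replicate (right). E2f1 stands highest in both, with 29 to 34 summits in the whole lists and 5 to 8 in the top lists, and Cdk1 is at 0 throughout.

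The gene stg (string, FBgn0003525) encodes the Cdc25 phosphatase whose zygotic transcription times mitosis in the postblastoderm embryo. It spans 3975 bp at 3R 29251826 to 29255800, minus strand, and has 2 annotated TSSs. Its IDR peak, at 3R 29255168 to 29255531, was highest 25 bp upstream of the downstream TSS, within the 5′ UTR of the longer transcript and 450 bp inside it. The peak ranked 6090 in the IDR list, 8156 in replicate 3, 5445 in replicate 4 and 6607 in replicate 5 (6736 ± 1360.1). It was thus below the strongest 7176 peaks in replicate 3 and above that limit in the other replicates. The window of 101 bp centred on the summit had 54.5% GC, and 2.3% of all IDR windows were as GC-rich or richer. Its core is printed because it was the only IDR window of the members with a TATA word within 50 bp of a TSS. TATAAA began 28 bp upstream of the downstream TSS and 3 bp upstream of the summit. The E-box word CAGCTG occurred at both 57 and 19 bp upstream of that TSS. The line gives the 30 bases at chr3R:29255335-29255364 of the Release 6 genome (dm6), minus strand, 5′ to 3′, with TATAAA in capitals and the nearer CAGCTG in lower case after it.
stg summit: cggggtgcggtTATAAAaaccagctgctcg

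The only other pooled summit of stg was intronic, 1072 bp downstream of the same TSS, at rank 18427. Regulatory DNA of stg is known to extend far upstream, and the nearest-TSS rule gives that DNA to other genes. Within 50 kb upstream of stg lay 3 IDR summits. The nearest was 9476 bp upstream and ranked 4165 (5464, 3582 and 4181 in replicates 3, 4 and 5). The next was 18975 bp upstream and ranked 2177 (2179, 2409 and 2126), above the promoter summit of stg in every replicate. Both were nearest to the TSS of CG45544. The farthest was 21420 bp upstream, nearest to CG14506, and ranked 5938 (5323, 6584 and 10593). None of the 3 was counted as a stg summit, and which gene they act on, if any, was not tested.

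Cdk1 (FBgn0004106, 2L 10384739 to 10386262, minus strand) encodes the mitotic kinase itself. It had no summit in any of the 5 lists under the nearest-TSS rule. An IDR summit did lie 236 bp upstream of its TSS, in the gap that separates it from the divergently transcribed mRpS7, a mitochondrial ribosomal protein gene. The summit was 164 bp from the mRpS7 TSS, which was therefore the nearest. The peak, at 2L 10386315 to 10386634, ranked 1517 in the IDR list and 1310, 1548 and 2356 in replicates 3, 4 and 5, and 3 of the 9 summits counted for the members ranked above it in the IDR list. When every gene with a TSS within 500 bp of an IDR summit was counted, Cdk1 joined and 5 members had such a TSS, against 22.8% of all genes. The window at chr2L:10386448-10386548 (dm6, minus strand, 5′ to 3′) is shown because it was shared by both promoters and held both homeodomain words searched; capitals mark TATAAA, then the word CAATTA (read here as its reverse complement TAATTG), then TAATTA.
Cdk1 and mRpS7 summit: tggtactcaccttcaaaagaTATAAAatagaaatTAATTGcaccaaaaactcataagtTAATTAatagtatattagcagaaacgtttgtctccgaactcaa

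CycE (FBgn0010382, 2L 15727581 to 15748150, minus strand) encodes the cyclin that starts S phase. Its single IDR peak, at 2L 15746905 to 15747349, was intronic to the longest transcripts and ranked 797 in the IDR list. The ranks were 1001, 880 and 540 in replicates 3, 4 and 5 (807 ± 239), so the peak was in the top lists of all 3. The summit lay 468 bp upstream of the middle of 3 TSSs and 1072 bp downstream of the first. Its promoter status was close to the limit: the replicate 4 summit was shifted by 36 bp, to 504 bp upstream, and the replicate 5 summit by 38 bp, so both fell outside 500 bp. The CycE window was the least GC-rich of the members, at 13.9%, and 39 of the 7176 IDR windows (0.543%) were at or below it. Its longest run of A and T was 25 bases, and 2.42% of IDR windows held a run as long. The window at chr2L:15747028-15747128 (dm6, minus strand, 5′ to 3′) is shown for that composition; it held none of the 13 words searched, so no letters are in capitals.
CycE summit: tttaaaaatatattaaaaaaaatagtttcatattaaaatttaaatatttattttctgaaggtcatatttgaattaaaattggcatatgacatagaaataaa

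The 3 other pooled summits of CycE were weak. One lay 116 bp inside the first TSS at rank 22175, with replicate 4 and 5 peaks at ranks 14316 and 28391 and none in replicate 3. Replicate 3 alone had a further peak in its top list, highest 863 bp inside the first TSS at rank 2917. That position is within the bounds of the IDR peak described above. The remaining 2 pooled summits were 691 and 974 bp downstream of the middle TSS, at ranks 16895 and 29313. The most downstream TSS, at 15731784, had no pooled summit within 13852 bp. All pooled summits of CycE thus lay in the part of the gene around its first 2 TSSs.

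E2f1 (FBgn0011766, 3R 21620304 to 21660871, minus strand) encodes the activating E2F factor of the fly and held the most summits of the 10 genes. Its 40568 bp and 5 TSSs held 5 IDR and 34 pooled summits, with 29, 29 and 34 summits in the whole lists of replicates 3, 4 and 5 (30.7 ± 2.89) and 6, 5 and 8 in the top lists (6.33 ± 1.53). Its pooled summits include weakly scored ones, with the authors' −log10 q down to 0.362, and neighbouring summits may share 1 replicate peak. All 5 IDR summits were intronic. Long genes hold more summits: of 706 genes that span over 20 and up to 50 kb, 65.9% had an IDR summit and 17.3% had 5 or more, with a median of 1 IDR and 8 pooled summits. CycE, in the same length class, had 1 and 4. Per 10 kb of span E2f1 had 8.38 pooled summits, fewer than fzr (11.4), dap (10.2) or PCNA (8.85); those of dap and PCNA all lay upstream of the span.

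The strongest E2f1 summit, at 3R 21627799 to 21628076, lay 4761 bp downstream of the TSS at 21632693 and ranked 1510. Its ranks of 1642, 1464 and 1564 in replicates 3, 4 and 5 (1556.7 ± 89.2) gave the lowest ratio of highest to lowest rank among the 9 members' summits, 1.12. The next, at 3R 21641573 to 21641852, was 3215 bp upstream of the TSS at 21638494 and ranked 2258 (2811, 1920 and 2403 in the replicates). A summit 3409 bp downstream of the TSS at 21660432, at 3R 21656844 to 21657172, ranked 3366 (3387, 3490 and 5006). These 3 distal summits were in the top lists of all replicates. The promoter summit, 262 bp upstream of the TSS at 21633073 (3R 21633240 to 21633414), ranked 4576, and its ranks of 5722, 4562 and 2737 spread by 2.09 times, the widest spread among the members. The last, 1433 bp downstream of the TSS at 21638494 (3R 21636991 to 21637083), ranked 7056, near the end of the list, and was at 6486, 7047 and 11389 in the replicates. The most upstream TSS had no IDR summit; a pooled summit 55 bp upstream of it ranked 7888, and the strongest replicate peaks that overlapped it ranked 9092, 9393 and 5672. In replicate 4 that peak was highest downstream of the TSS, and the one nearest to the TSS, 52 bp upstream, ranked 14800.

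The 3 E2f1 windows printed were chosen as the strongest distal summit and the only E2f1 IDR summits that held the homeodomain word TAATTA. In the promoter window TATAAA and TAATTA followed each other directly, with TAATTA beginning 5 bp upstream of the summit, and in the other window TAATTA began 39 bp upstream of it. The windows are chr3R:21627882-21627982, chr3R:21633285-21633385 and chr3R:21641659-21641759 (dm6, minus strand, 5′ to 3′), with these words in capitals. Their GC contents were 20.8%, 21.8% and 22.8%.
E2f1 strongest distal summit: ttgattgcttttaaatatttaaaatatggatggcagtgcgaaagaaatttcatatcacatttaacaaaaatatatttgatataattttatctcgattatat
E2f1 promoter summit: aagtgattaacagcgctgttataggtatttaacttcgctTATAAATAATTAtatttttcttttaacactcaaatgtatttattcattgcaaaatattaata
E2f1 second distal summit: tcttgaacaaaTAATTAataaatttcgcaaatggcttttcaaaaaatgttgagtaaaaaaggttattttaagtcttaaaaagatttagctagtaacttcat

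The gene fzr (fizzy-related, FBgn0262699, X 4667290 to 4679537, minus strand) encodes the Cdh1-type activator of the anaphase promoting complex, needed for cells to leave the cycle. It had 1 IDR and 14 pooled summits, and 14, 13 and 11 summits in the whole lists of replicates 3, 4 and 5 (12.7 ± 1.53). Of 964 genes spanning over 10 and up to 20 kb, 56% had an IDR summit, with a median of 1 IDR and 3 pooled summits. The IDR summit, at X 4679843 to 4680118, lay 463 bp upstream of the first TSS and also in the 3′ UTR of Pp2C1, a phosphatase gene on the same strand. It ranked 2083, with ranks of 1972, 2547 and 1949 in the replicates (2156 ± 339), all in the top lists. GC content was 30.7%, near the median of all IDR windows (29.7%). The second TSS of fzr had a pooled summit 197 bp upstream at rank 17592, with peaks at 11564 and 18361 in replicates 3 and 4 and none in replicate 5. A much stronger IDR peak lay 276 bp beyond the 3′ end of fzr, in the promoter of CG3009; it ranked 191 (225, 166 and 189) and belongs to CG3009 by the rule.

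**Figure D2:**
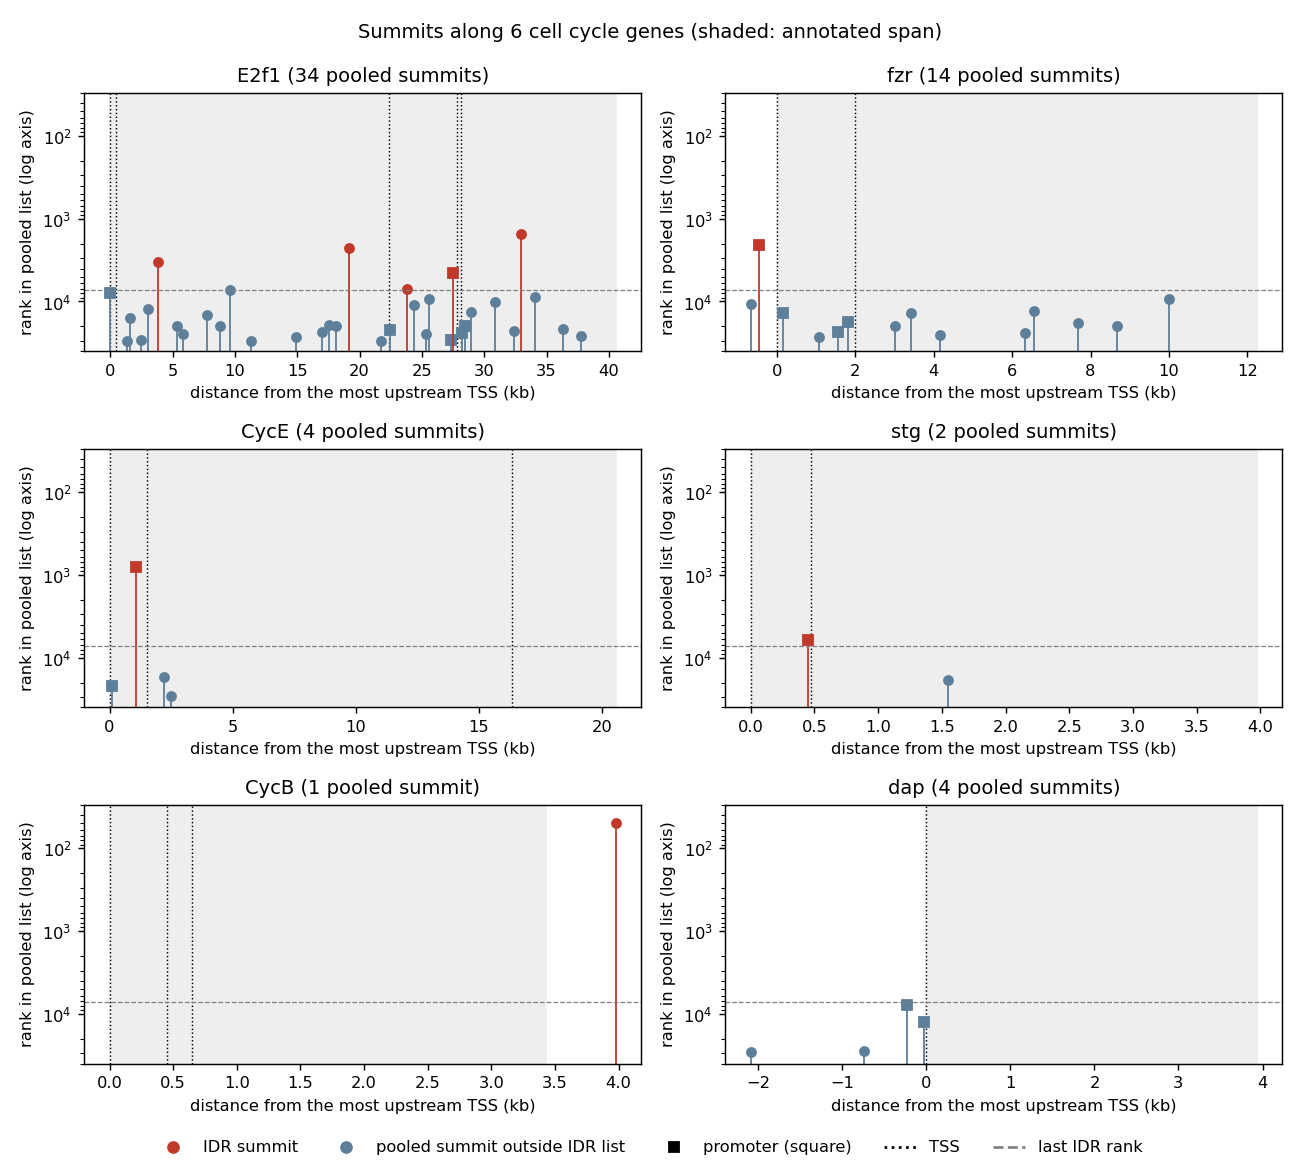
Position of every pooled summit along 6 cell cycle genes, in kb from the most upstream TSS in the direction of transcription, against its rank in the pooled list (log axis, strongest at the top). Red marks IDR summits, squares mark promoter summits, dotted lines mark TSSs and shading marks the gene; the IDR summits of E2f1 are spread along its introns, and the only summit at CycB lies beyond the gene.

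CycA (FBgn0000404, 3L 11826719 to 11833578, minus strand) encodes a cyclin essential for mitosis, and CycD (FBgn0010315, X 15906822 to 15909676, minus strand) the partner of Cdk4 in growth and cycle entry. Neither had an IDR summit. CycA had 1 pooled summit, 65 bp downstream of its TSS in the 5′ UTR, at rank 8480. The matching peaks were at 9923 in replicate 4 and 5249 in replicate 5, and replicate 3 had none within 7753 bp of the TSS. The nearest IDR summit to the CycA TSS was 10888 bp away, in the promoter of the ribosomal protein gene RpL10Ab, at rank 3333 (2779, 3532 and 6994), which in replicate 5 was below the CycA peak. CycD had no pooled summit within 17354 bp of its TSS. Replicate 4 had a peak 132 bp upstream at rank 10246 and replicate 5 one 415 bp upstream at rank 10511, and replicate 3 had none within 17601 bp. The nearest IDR summit was 41685 bp away, in the promoter of Gapdh2, at rank 25. The nearest IDR summits of both cyclin genes thus lay in promoters of other genes.

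CycB (FBgn0000405, 2R 22803521 to 22806948, minus strand) encodes the mitotic cyclin destroyed at anaphase. It had the strongest summit of all the members and no promoter summit in any list. The peak, at 2R 22802758 to 22803166, ranked 49 of 7176 in the IDR list and 47, 44 and 71 in replicates 3, 4 and 5 (54 ± 14.8). Its summit lay 552 bp beyond the 3′ end of CycB and 3334 bp from the nearest of its 3 TSSs. The neighbour on the other side, blw, which encodes a subunit of mitochondrial ATP synthase, is transcribed towards CycB and ends at 2R 22802180. The summit thus lay between the 3′ ends of convergent genes, and CycB received it because its TSS was the nearest. The summits of the replicates were within 4 bp of the pooled one. GC content was 26.7%, and the window held CAATTA, 18 bp downstream of the summit. Only replicate 3 had a further peak, inside CycB at rank 27732.

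The gene dap (dacapo, FBgn0010316, 2R 9712321 to 9716256, plus strand) encodes the p21 and p27 type inhibitor that stops the cycle after the last embryonic mitosis. It had no IDR summit but 4 pooled summits, all upstream of the gene. The strongest, 230 bp upstream of the TSS, ranked 7844, below the end of the IDR list at 7176. Its ranks were 8405 in replicate 3 and 5652 in replicate 4, and replicate 5 had no peak overlapping it. A second promoter summit, 25 bp upstream, ranked 12643, and its nearest replicate 5 peak ranked 7676. The remaining summits, 740 and 2091 bp upstream, ranked 28167 and 29075. The nearest IDR summit was 26229 bp away, close to Mmp2, a matrix metalloproteinase gene. Genes of 2 to 5 kb, the length class of dap, CycD, stg and CycB, had an IDR summit in 27.2% of 3943 cases.

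PCNA (FBgn0005655, 2R 20261754 to 20262883, minus strand) encodes the sliding clamp of DNA polymerases and is a well known E2f1 target. It had no IDR summit and 1 pooled summit, 99 bp upstream of its first TSS at rank 10010. The ranks were 10121, 15289 and 16143 in replicates 3, 4 and 5, outside the top list of each. The summit also lay in the 3′ UTR of plu (plutonium), a regulator of the early embryonic cycles. A stronger peak stood 1109 bp upstream of the PCNA TSS, at the promoter of the ribosomal protein gene RpS18; it ranked 1361 (1300, 1352 and 1459).

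Close to the end of the IDR list, the E2f1 summit at rank 7056 was just inside. Just outside were an intronic E2f1 summit at rank 7236 (6413, 9655 and 10348 in the replicates), the dap promoter summit at 7844, the upstream E2f1 promoter summit at 7888 and the CycA promoter summit at 8480. In single replicates some of these were stronger than summits inside the list. CycA ranked above stg in replicate 5 (5249 against 6607), as did the intronic E2f1 summit in replicate 3 (6413 against 8156). The dap summit ranked above the E2f1 summit inside the list in replicate 4 (5652 against 7047). The pooled rank sets which summits are in the list, and the order in single replicates differed from it.

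All 9 IDR summits had a peak in each replicate, as 7040 of the 7176 IDR peaks did. The pooled peaks that make up the IDR list come from the same reads, so this is no independent check. Their ranks varied between replicates as those of other peaks did: the highest rank divided by the lowest had a median of 1.5 over the 9 summits and 1.54 over those 7040 peaks. The largest shift of the summit between the IDR list and a replicate had a median of 31 bp for the members and 34 bp overall. No replicate was the highest or the lowest throughout.

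**Figure D3:**
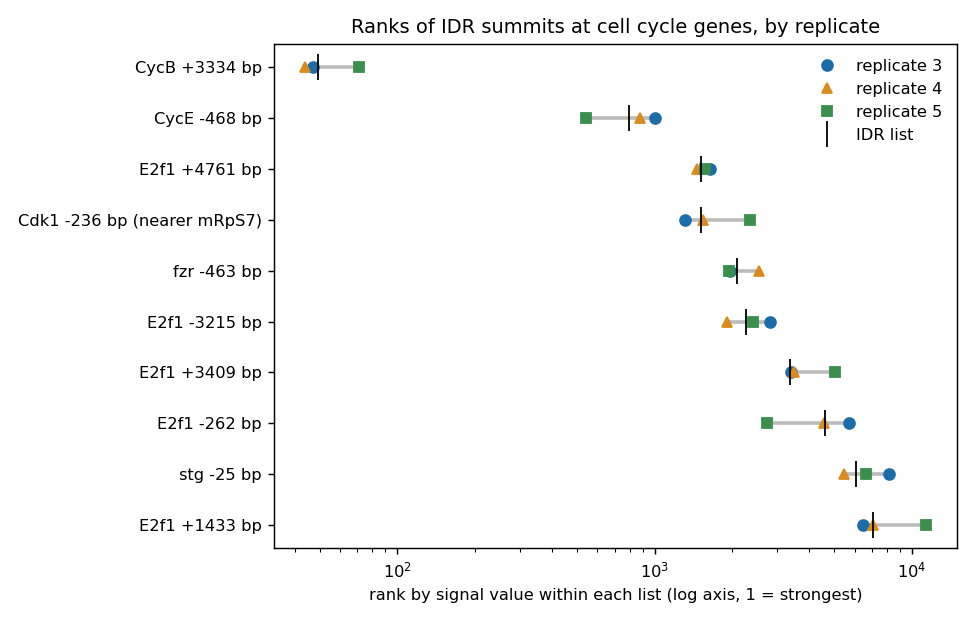
Rank of each IDR summit of the cell cycle genes, and of the summit between Cdk1 and mRpS7, in replicates 3, 4 and 5 (points) and in the IDR list (bar), on a log axis with the strongest on the left. Labels give the distance from the nearest TSS of the gene; the CycB summit stands apart at ranks 44 to 71, and the E2f1 summits range from 1464 to 11389.

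Promoter summits of the members had the weaker median rank in the IDR list and the stronger one in the pooled list. The 4 promoter IDR summits had a median rank of 3329.5 and the 5 distal ones 2258. Over all genes the order was the other way, with medians of 3202.5 for 2636 promoter and 3766.5 for 4416 distal summits, but the members' medians rest on 4 and 5 values that overlap. In the pooled list the 17 promoter summits of the members had a median rank of 12643 and the 44 distal ones 19523.5, and over all genes these medians were 10209 and 16520.5. With promoters of 1000 bp the members' medians were 17243.5 and 18427, so most of their difference rested on the promoter limit. Within 500 bp the promoter summits were the stronger in each replicate as well. Their median rank was 9606.5 against 16534 in replicate 3, 14317 against 17021 in replicate 4 and 10038.5 against 18598 in replicate 5. In the whole replicate lists 21.1%, 30.4% and 23.0% of the members' summits were in promoters (24.8 ± 4.92%, SD, n = 3).

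Most of the 61 pooled summits lay in introns (41), with 10 in 5′ UTRs, 8 upstream of the gene, 1 in coding sequence (at E2f1) and 1 downstream (at CycB). E2f1 contributed 34 of them and fzr 14. Summits were counted whatever their −log10 q, which went down to 0.362 among them. A peak was found in all 3 replicates at 33 of the 61 summits, in 2 replicates at 19, in 1 at 8 and in none at 1, though neighbouring summits may share 1 replicate peak. Outside the IDR list 24 of 52 members' summits (46.2%) had a peak in all 3 replicates, and over all genes 47.8% did. In this the weaker summits of the cell cycle genes were close to the list as a whole.

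GC content was low at CycE and at 4 of the 5 E2f1 summits. The members' IDR windows had a median GC content of 22.8% (range 13.9 to 54.5%), against 29.7% over all 7176 IDR windows (interquartile range 25.7 to 36.6%). CycE and all E2f1 windows but the weakest were below the lower quartile, CycB, fzr and the weakest E2f1 window were between the quartiles, and stg was above the upper one. Outside the IDR list, the 52 pooled summits of the members had a median of 40.6% (range 19.8 to 64.4%), and all such summits 39.6%. GC content bears on how well fragments amplify and map, and its part in the ranks was not tested.

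**Figure D4:**
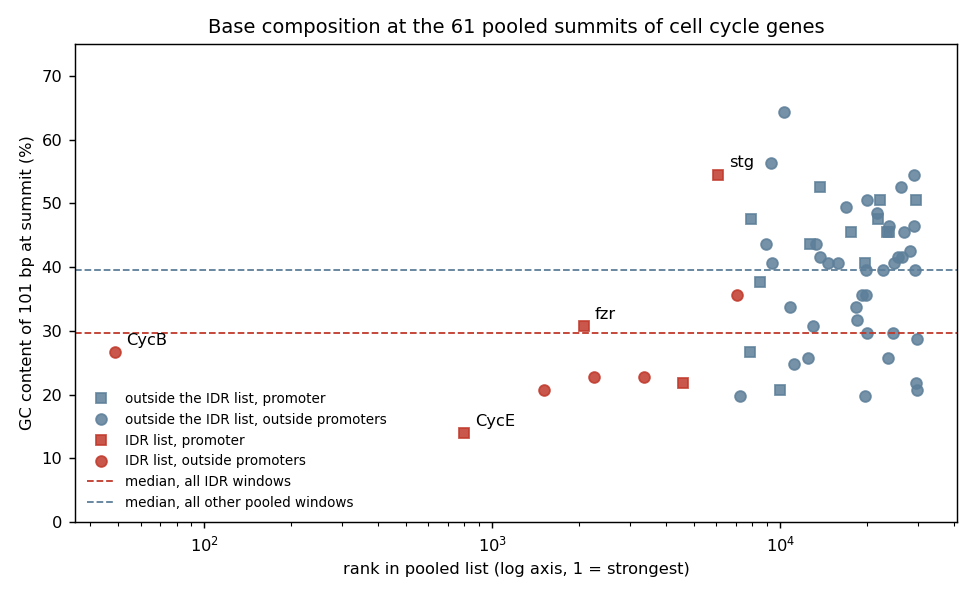
GC content of the 101 bp window at each of the 61 pooled summits of the cell cycle genes against the rank in the pooled list (log axis), with IDR summits in red, promoter summits as squares and the medians over all genes as dashed lines. Of the 9 IDR summits 7 lie between 13.9 and 30.7% GC, and E2f1 at rank 7056 and stg lie higher.

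The 13 words were searched in the 9 IDR windows of 101 bp on both strands. TAATTA, which many homeodomain proteins bind, was in 2 windows, both at E2f1 (11.4% of all IDR windows), and CAATTA was in 1, at CycB (11.2%). TATAAA was in 2, at E2f1 and stg (25.3%), and CAGCTG in 1, at stg (2.73%). No member window held TATCGATA, the element bound by DREF, a regulator of replication genes (0.92% of all windows). Likewise none held the E2F words TTTCGCGC (0.181%), TTTGGCGC (0.307%), TTTCCCGC (0.265%) or TTTGCCGC (0.125%). GGTCACACT (0.697%), CAGGTAG (0.348%), GAGAGAG (1.02%) and AGATAAG (1.78%) were also not found. A word that was not found says only that its letters are not in these windows. TAATTA and CAATTA differ in their first base, and none of the words found overlapped another.

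A list of 97 other cell cycle genes places the members in their pathway. Of these, 29 (29.9%) had an IDR summit, close to the 29.1% of all genes, and 21 had one in a promoter (17.8% of all genes). In the top lists of replicates 3, 4 and 5 the numbers were 33, 26 and 30 (29.7 ± 3.51, SD, n = 3). The shares of all genes in these lists were 30.4%, 29.6% and 30.1%. By role, the share with an IDR summit was 4 of 11 for Cdk inhibitors and G1/S control, 8 of 22 for the anaphase promoting complex and its regulators, 6 of 17 for cyclins and their kinases, 3 of 13 for phosphatases and kinases acting on Cdk1, and 8 of 34 for replication licensing and DNA synthesis. These shares run from 23.1 to 36.4% around that of all genes and were not tested against it.

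Single genes of the list had peaks as strong as those of the members. Among the partners of E2f1 and Cdk regulators, Dp, the dimer partner of E2f1, had 3 promoter summits, the strongest at rank 540 (502, 781 and 564 in replicates 3, 4 and 5). Myc, a growth regulator, had 8 distal summits from rank 1349 (1113, 1273 and 2083), the strongest 17768 bp from its TSS. The gene rux, an inhibitor of CycA kinase, had 1 at 1619 (1534, 1580 and 1996), 5350 bp from its TSS. Of the machinery that acts with fzr, the subunit gene Cdc16 had a promoter summit at rank 258 (327, 232 and 194). The spindle checkpoint gene mad2 had 4 distal summits from rank 1365 (1346, 1604 and 1187), the strongest 11148 bp from its TSS. Rca1, an inhibitor of the complex, had 1 at 1556 (1703, 1346 and 1843), over 10 kb from its TSS. The strongest summit of each of these genes was in the top list of every replicate.

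Among cyclin and kinase genes the highest were CycY at rank 415 (492, 396 and 398), Cdk12 at 1377 (1470, 1658 and 1228) and CycT at 1461 (1500, 1307 and 1412). The CycY and CycT summits lay 2802 and 9260 bp from their TSSs, and that of Cdk12 192 bp. Cdk12 and CycT are known from transcription rather than from the cell cycle. Among genes acting on Cdk1, trbl, which lowers stg protein, had 4 summits from rank 765 (829, 655 and 789). The checkpoint kinase gene grp had 4 from rank 1101 (1825, 1000 and 811), the strongest being nearer to the TSS of CG31807, and the phosphatase gene PpV had 2 from rank 3388 (4274, 3143 and 3809). In DNA replication, chif, related to the Dbf4 activator of Cdc7, had 1 distal summit at rank 55 (73, 47 and 45), next to the CycB summit in strength. RnrS, the small subunit of ribonucleotide reductase, had a promoter summit at 505 (395, 700 and 673), and Dref one at 1283 (1544, 1145 and 1123). Strong summits were therefore found in every role, at single genes and not across a role.

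**Figure D5:**
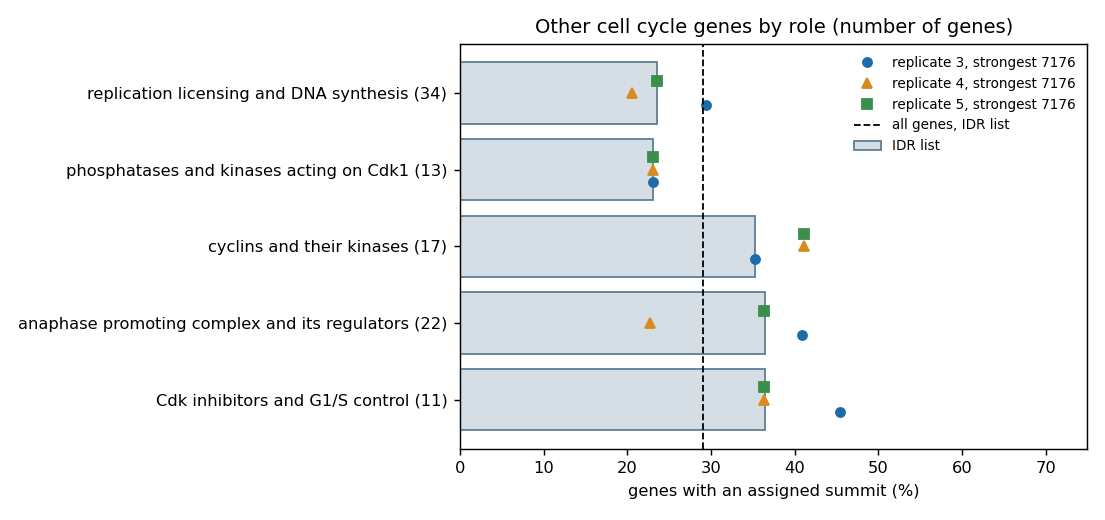
Share of the 97 other cell cycle genes with an assigned summit in the IDR list (bars) and in the 7176 strongest peaks of replicates 3, 4 and 5 (points), by role, with the number of genes in parentheses and the share of all genes with an IDR summit as a dashed line. The bars run from 23.1 to 36.4%, on both sides of 29.1%, and the replicates of a role differ by up to 4 genes.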

How the data were processed

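Per the file descriptions deposited with the data, the authors called peaks on dm6 for each of 3 replicates and for their pooled alignments, each against a shared control, and derived the IDR list from these; the sources used here name no aligner, caller, version or IDR cut-off. The deposited signal scores are the authors' values, on a scale they do not state, and were used only for ranks within 1 list. The deposited −log10 q-values were 4.37 in every IDR peak and went down to 0.359 in the pooled list, and were not used to choose or rank peaks. The IDR list is the 7176 strongest pooled peaks. Lists carry no counts, so depth is unknown and no interval could be given.

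Genes and TSSs came from Ensembl release 115 and sequence from the Release 6 genome. Computation used Python 3.11.15, numpy 2.4.6 and pandas 2.3.3. Figures used matplotlib 3.10.9. A replicate peak was matched to a summit when the peaks shared at least 1 bp. The assignment was tested on simulated data. Coordinates are 1-based. Where a gene name of the pathway list was older it was resolved (3 genes), and 1 of 98 was left out as ambiguous. Named genes were the members, genes whose TSS was nearest to or within 500 bp of a described summit, and the 3 genes of each pathway role with the strongest IDR summit. The members and lists were chosen with earlier results of these data known. With 1 group no test was made; SD over replicates covers only these 3 samples. Alternatives varied the peak set, the assignment, the promoter and motif windows, the overlap with replicate peaks and the replicates used. The overlap of 1 bp in the top lists of all replicates and the count of every gene with a TSS within 500 bp were added after seeing the data.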

Additional observations from a re-analysis of the deposited data

How the results depend on the processing

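No paired analysis was possible because the samples form 1 group. The counts over the members, 5 with an IDR summit, 9 summits, 4 in promoters at 4 genes and 5 outside, and 29 genes of the pathway list, stayed within 1.5 times when assignment used the nearest TSS alone or within 5 kb and when promoters were 1000 bp. When any IDR summit in a gene body or within 2 kb of it was counted, members were 7, with Cdk1 at 2 summits, PCNA at 1 and fzr at 2; summits were 15, those outside promoters 10 and pathway genes 45. The share of all genes under this rule was not computed, so these counts have no background to be set against. Among IDR peaks above the median signal value, promoter summits were 2, at 2 members. In the whole pooled list, members were 8, summits 61, promoter summits 17 at 7 members, others 44 and pathway genes 49. With 50% reciprocal overlap in the top list of each replicate, summits were 4, with 2 in promoters at 2 members and 2 outside. To leave out 1 replicate, the IDR list was kept as deposited. An overlapping peak was then asked for in the top lists of the remaining replicates. Without any 1 replicate no count over the members moved by over 1.5 times. E2f1 had 4 summits without replicate 3 or replicate 4, and with 1 bp of overlap in all 3 top lists. The stg summit was lost without replicate 4 or replicate 5, and with 1 bp of overlap in all 3 top lists. Each of these settings asks for replicate 3, which ranks it below 7176. Counting every gene with a TSS within 500 bp gave Cdk1 1 summit. Fixed-length lists without counts limit what a missing peak can show.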
